A study of Mus musculus with 6 samples.

Results

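The miR-26 family was described in mouse liver from small RNA sequencing, in which the reads of every mature miRNA are counted. Its 5 named members are mmu-miR-26a-5p, mmu-miR-26a-1-3p, mmu-miR-26a-2-3p, mmu-miR-26b-5p and mmu-miR-26b-3p, chosen by name. Values were analysed for 4 of the 5, out of 1546 mature miRNAs in all, and mmu-miR-26a-1-3p was not analysed here. The livers came from male C57BL/6 mice, 8 weeks old when the diets began and fed for 16 weeks. A normal diet was given to the 3 NC mice and a high-fat diet to the 3 MAFLD mice (metabolic dysfunction-associated fatty liver disease). The paper describes 6 mice on each diet, and how the 3 per group were chosen for sequencing is not given. The sample titles and tissue labels give mouse liver and name no allele, while the growth and treatment protocols in the same labels describe a human liver cell line, HepG2, exposed to fatty acids. The libraries were taken as mouse liver from their titles, tissue labels and mouse miRNA names. A fast of 6 hours preceded the collection of the livers. There was 1 library per liver, and whole liver was read, so that fewer cells of a type and less miRNA per cell cannot be told apart.

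A miRNA is cut from a hairpin whose 5p and 3p arms can both be released. The arm that is kept in the Argonaute protein, called the guide, pairs through its seed (bases 2 to 8) with target mRNAs and lowers their translation or stability, while the other arm, the passenger, is mostly degraded. In the miR-26 hairpins the 5p arm is the guide. MiR-26a is known in liver as a brake on fatty acid and glucose production and on insulin resistance, and the hairpins sit inside genes for the CTD small phosphatases, which are transcribed together with them.

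All 5 names matched the RefSeq sequences of GRCm38.p6. The hairpins are shown because the 5p arm of miR-26a is the same in 2 of them and the 3p arms differ, so that reads of miR-26a-5p cannot be divided between the 2 genes. The released arms are in capitals.
Mir26a-1: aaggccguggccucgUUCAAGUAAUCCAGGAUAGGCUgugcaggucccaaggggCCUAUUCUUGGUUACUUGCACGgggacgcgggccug
Mir26a-2: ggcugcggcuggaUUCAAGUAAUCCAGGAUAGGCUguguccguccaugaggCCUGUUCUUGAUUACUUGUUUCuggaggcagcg
Mir26b: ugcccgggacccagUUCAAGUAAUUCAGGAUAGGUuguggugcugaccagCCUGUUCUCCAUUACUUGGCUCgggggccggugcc

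Mir26a-1 lies on the plus strand at chr9:119031796-119031885, in intron 5 of the principal transcript of Ctdspl, which has 8 exons in GENCODE M21 (GRCm38). Mir26a-2 lies on the plus strand at chr10:126995530-126995613, in intron 5 of the principal transcript of Ctdsp2, which also has 8 exons. A shorter Ctdsp2 transcript of 3 exons covers Mir26a-2 with its exon 1. Mir26b lies on the plus strand at chr1:74394310-74394394, in intron 4 of the principal transcript of Ctdsp1, which has 7 exons. All 3 host genes are read from the same strand as their hairpin.

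The mature arms are shown with the seed in capitals, because the seed groups them differently from their names.
mmu-miR-26a-5p: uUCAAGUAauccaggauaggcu
mmu-miR-26b-5p: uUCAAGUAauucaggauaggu
mmu-miR-26a-1-3p: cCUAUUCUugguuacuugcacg
mmu-miR-26a-2-3p: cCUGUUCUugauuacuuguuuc
mmu-miR-26b-3p: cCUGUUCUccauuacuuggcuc

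The guides miR-26a-5p and miR-26b-5p have the seed UCAAGUA, which no other mouse miRNA in the RefSeq table has. Counted from 1 at the 5′ end, miR-26b-5p differs from miR-26a-5p by C11U and C21U and is the same at 19 of the 21 positions compared. It is 21 nt long, against 22 nt for miR-26a-5p. Among the passengers, miR-26a-2-3p and miR-26b-3p have the seed CUGUUCU, while miR-26a-1-3p has CUAUUCU because of A4G between the miR-26a passengers. MiR-26a-2-3p and miR-26b-3p differ by U9C, G10C, U19G and U20C. The seed CUGUUCU is also found in miR-6932-3p, read 0 times in each NC library and 0, 3 and 5 times in the MAFLD libraries, and in miR-7039-3p, read 0 times in all 6. How reads with a mismatch were assigned is not given in the sources used here, so the share of miR-26b-5p reads that could come from miR-26a-5p was not tested.

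The libraries held from 1336935 to 2549598 reads on miRNAs in NC livers and from 1534569 to 4685712 in MAFLD livers. Levels are given in CPM, the reads of a miRNA scaled to a common total of reads on all listed miRNAs. MiR-148a-3p took from 48.5% to 71.4% of the reads in NC and from 46.8% to 56.7% in MAFLD livers, with the lowest NC share in NC replicate 3, and the CPM of all other miRNAs moves with this share. Of the listed miRNAs, 501 reached a mean of 1 CPM and were tested, and their median log2 fold change in MAFLD against NC livers was 0.43. It was 0.044 after median-ratio scaling, which sets the libraries to a common median ratio instead of a common total. NC replicate 3 stood apart from the other NC livers, with a scaling factor relative to depth of 1.25 against 0.631 and 0.774, while the MAFLD factors ran from 0.961 to 1.30. MiR-122-5p, the defining miRNA of hepatocytes, took from 4.22% to 8.52% of the reads in the 6 libraries. The 4 miRNAs of a brain list summed to 463 and 744 CPM in NC replicates 1 and 2 and to between 44.2 and 63.9 CPM in the others, and the part of that difference in the results below was not tested.

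MiR-26a-5p was the most abundant member in all 6 libraries and was between rank 7 and rank 10 of all miRNAs. Its level was 7693, 9938 and 23639 CPM in the NC livers and 15983, 12447 and 23655 CPM in the MAFLD livers. NC replicate 3 was as high as the highest MAFLD liver, NC replicates 1 and 2 were below all MAFLD livers, and the groups overlapped. The means were 13757 ± 8632 CPM (SD, n = 3) in NC and 17362 ± 5730 CPM (SD, n = 3) in MAFLD livers. The log2 fold change was 0.46 (standard error 0.37, 95% interval −0.34 to 1.26), with an adjusted p of 0.50 by limma (unadjusted 0.238). It was thus 0.03 above the median of all miRNAs tested, and the difference was within the spread between livers.

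MiR-26b-5p, the other guide, was between rank 17 and rank 25. Its level was 1562, 2231 and 4793 CPM in the NC livers and 5155, 4020 and 6859 CPM in the MAFLD livers. Of the NC livers, NC replicate 3 alone overlapped with the MAFLD livers, being above MAFLD replicate 2 and below the other MAFLD livers. The means were 2862 ± 1705 CPM (SD, n = 3) in NC and 5345 ± 1429 CPM (SD, n = 3) in MAFLD livers. The log2 fold change was 1.03 (standard error 0.38, 95% interval 0.22 to 1.84), a fold of 2.04. The unadjusted p was 0.0162, and the adjusted p of 0.208 from limma did not pass 0.05. The change was 0.60 above the median of all miRNAs tested.

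**Figure D1:**
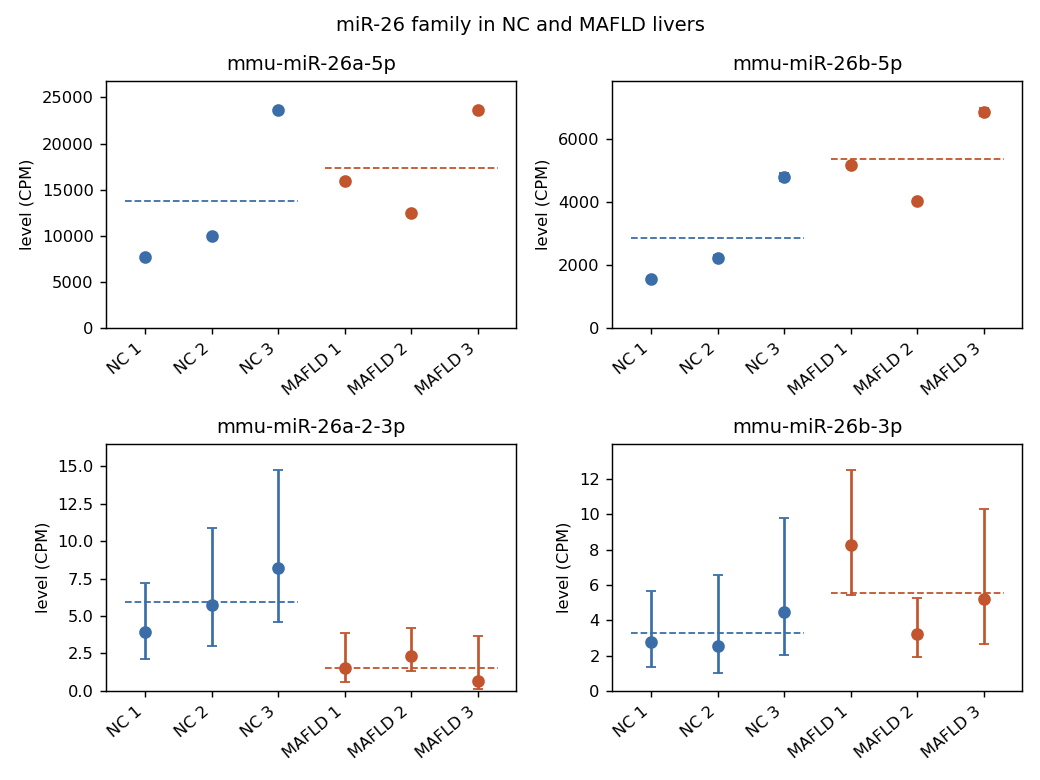
Level in CPM of 4 miR-26 family members in each NC (blue) and MAFLD (orange) liver. Points are libraries, vertical bars are 95% Wilson intervals of the counting error (smaller than the point for the 5p arms), and dashed lines are group means of 3 livers. MiR-26a-5p ran from 7693 to 23639 CPM in NC and from 12447 to 23655 CPM in MAFLD livers, and of these 4 miRNAs miR-26a-2-3p was the one whose groups did not overlap.

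At an adjusted p under 0.05 from limma with Benjamini-Hochberg adjustment over the 501 miRNAs, 0 of the 4 members passed, against a background of 1 miRNA (0.200%). At an unadjusted p under 0.05, miR-26b-5p was higher, where 67 of the 501 miRNAs (13.4%) were higher, and miR-26a-2-3p was lower, where 23 (4.59%) were lower. With median-ratio scaling this split of all miRNAs was 36 higher and 45 lower, and the directions of miR-26b-5p and miR-26a-2-3p were the same. By CPM the MAFLD livers were all above the NC livers for 76 miRNAs (15.2%), none of them a member. The adjusted p of both guides depended on NC replicate 3. Without it the log2 fold change of miR-26a-5p was 0.94 (adjusted p = 0.0216 from limma) and that of miR-26b-5p was 1.48 (adjusted p = 0.00334 from limma). That fit also called 114 of the 501 miRNAs, and the median log2 fold change of all rose to 0.67.

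**Figure D2:**
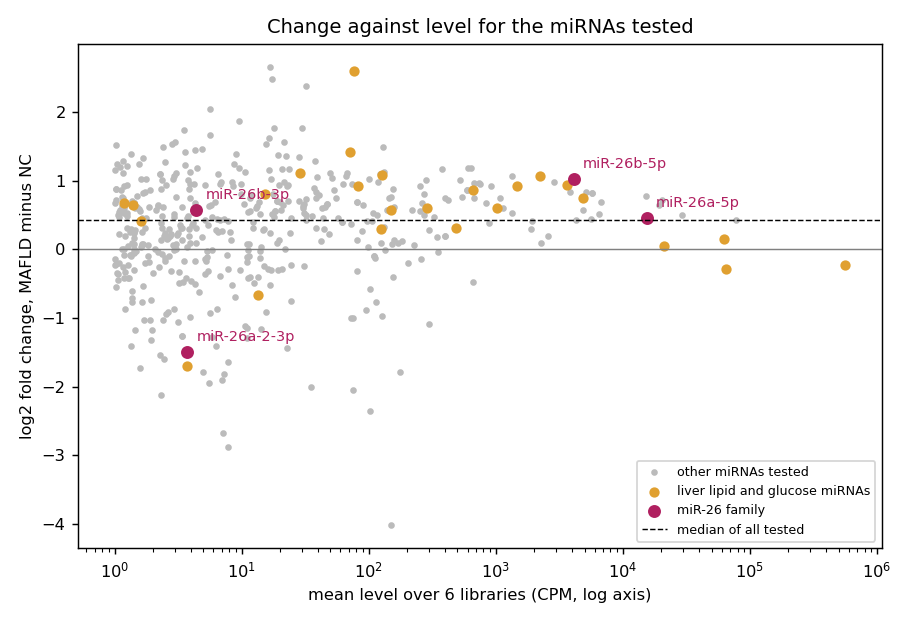
Log2 fold change (MAFLD minus NC, limma on log2(CPM + 1)) against the mean level over 6 libraries in CPM on a log axis, for the 501 miRNAs tested. The miR-26 family is in magenta, the list of liver lipid and glucose miRNAs in orange, other miRNAs in grey, and the dashed line is the median of all at 0.43. MiR-26a-5p at 0.46 lies near the dashed line, miR-26b-5p at 1.03 above it and miR-26a-2-3p at −1.49 far below it.

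The level of both guides was also set on other scales. With median-ratio scaling, miR-26a-5p was at 12196, 12845 and 18908 in the NC livers and at 12421, 12950 and 18150 in the MAFLD livers, in scaled CPM. Each group then held 2 libraries near the lower end and its replicate 3 near the upper end, with nearly the same range. The log2 fold change of miR-26a-5p was −0.01 (standard error 0.22, 95% interval −0.49 to 0.47). On the same scale miR-26b-5p was at 2476, 2884 and 3834 in the NC livers and at 4006, 4183 and 5263 in the MAFLD livers. All MAFLD livers were then above all NC livers, as for 58 of the 501 miRNAs (11.6%) on this scale. Its log2 fold change was 0.56 (standard error 0.20, 95% interval 0.12 to 1.01), with an adjusted p of 0.219 by limma (unadjusted 0.0178). When miR-148a-3p was left out of the total, the log2 fold change was 0.11 (standard error 0.24) for miR-26a-5p and 0.68 (standard error 0.23, unadjusted p = 0.0105 from limma) for miR-26b-5p. On that scale the groups of miR-26b-5p overlapped narrowly, at 9311 CPM in NC replicate 3 and 9294 CPM in MAFLD replicate 2. With quantile normalization, which gives all libraries the same distribution of values, the log2 fold change of miR-26a-5p was −0.06 (standard error 0.21). That of miR-26b-5p was then 0.37 (standard error 0.24, 95% interval −0.18 to 0.93, unadjusted p = 0.159 from limma).

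**Figure D3:**
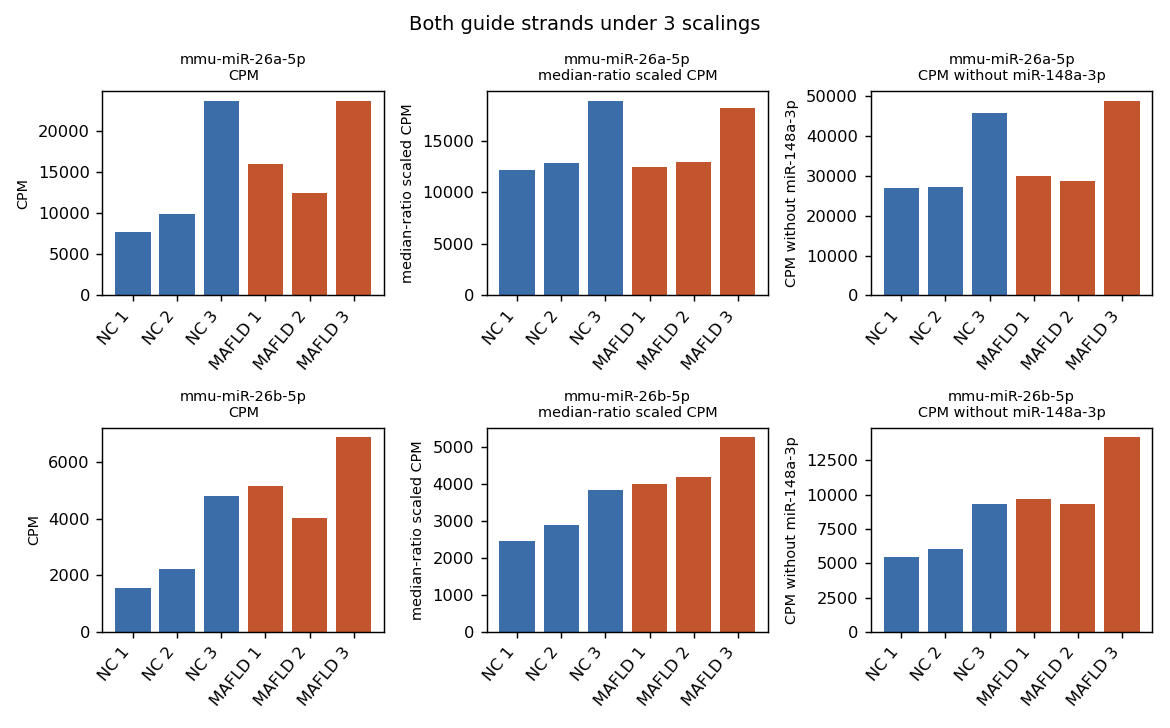
Level of miR-26a-5p (top) and miR-26b-5p (bottom) in each NC (blue) and MAFLD (orange) liver as CPM, as median-ratio scaled CPM and as CPM of a total without miR-148a-3p, with bars for single libraries. In median-ratio scaled CPM miR-26a-5p ran from 12196 to 18908 in NC and from 12421 to 18150 in MAFLD livers, and miR-26b-5p was below 3834 or at it in NC and at 4006 or above in MAFLD livers.

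Because the guides differ in sequence at few positions and share their seed, their ratio within each library was compared, which does not depend on how libraries are scaled. For every 100 reads of miR-26a-5p there were 20.3, 22.5 and 20.3 reads of miR-26b-5p in the NC livers and 32.3, 32.3 and 29.0 in the MAFLD livers. No MAFLD liver had a ratio as low as any NC liver, and NC replicate 3, whose levels of both guides were the highest of the NC livers, had the same ratio as NC replicate 1. The means were 21.0 ± 1.25 (SD, n = 3) in NC and 31.2 ± 1.89 (SD, n = 3) in MAFLD livers. The log2 difference was 0.57 (standard error 0.07), a fold of 1.48, with a two-sided exact permutation p of 0.1, the smallest that 3 livers against 3 allow. MiR-26b-5p made up 16.9%, 18.3% and 16.9% of the reads of both guides in the NC livers and 24.4%, 24.4% and 22.5% in the MAFLD livers. The 95% Wilson intervals of these shares, which cover counting error only, reached at most 18.9% in NC and no lower than 22.1% in MAFLD livers. Such a separation was common among abundant miRNAs. Of the 561 pairs among the 34 miRNAs whose mean reached 1000 CPM, 140 (25.0%) had ratios that did not overlap between the groups. Ratios of 74 pairs (13.2%) did not overlap and also had a difference at least as large as this one. These pairs share miRNAs and are not independent.

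Of the cell type lists, only the endothelial one, miR-126a-3p and miR-126a-5p, had sums that did not overlap between the groups by CPM. Among single miRNAs, 76 of the 501 (15.2%) had all MAFLD livers above all NC livers by CPM. These 2 miRNAs summed to between 4710 and 6587 CPM in NC and between 7659 and 10155 CPM in MAFLD livers, and neither was at 0. Both were higher at an unadjusted p under 0.05 from limma, where 13.4% of all miRNAs were higher. With median-ratio scaling their sums overlapped, at 5269 to 7480 in NC and 5877 to 8367 in MAFLD livers. Their part in the change of miR-26b-5p was not tested. The summed levels of the hepatocyte, brain, muscle, red blood cell, white blood cell, stellate and fibroblast, and pancreas lists overlapped between the groups on both scales. Single miRNAs in them also had an unadjusted p under 0.05 from limma. Higher were 2 of 5 in the stellate and fibroblast list, 1 of 3 in the hepatocyte list and 1 of 4 in the white blood cell list. Lower were 2 of 4 in the brain list, where 4.59% of all miRNAs were lower. The sum of the brain list in NC replicate 3 was 50.1 CPM, within the 44.2 to 63.9 CPM of the MAFLD livers.

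**Figure D4:**
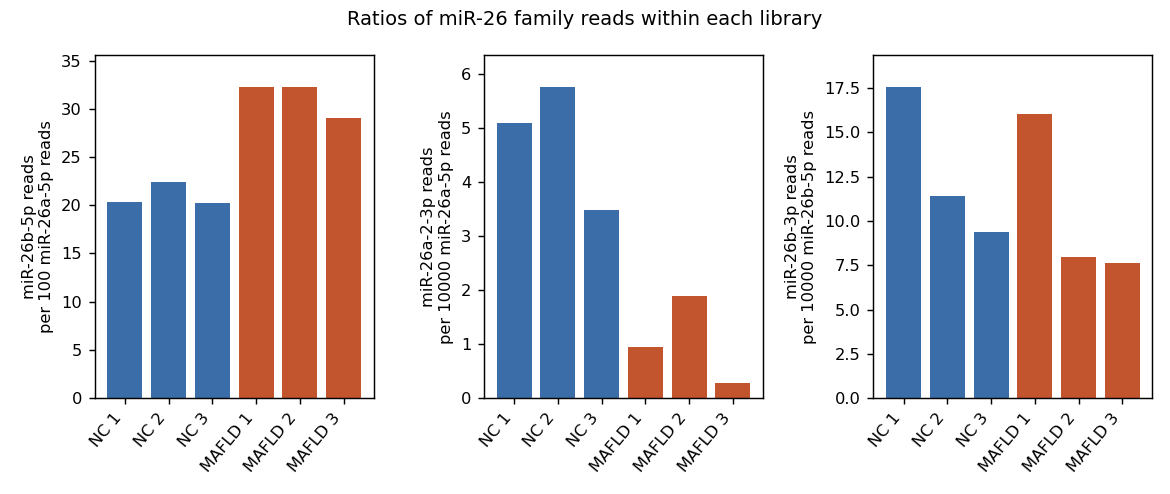
Ratios of reads within each NC (blue) and MAFLD (orange) library: miR-26b-5p per 100 reads of miR-26a-5p (left), miR-26a-2-3p per 10000 reads of miR-26a-5p (middle) and miR-26b-3p per 10000 reads of miR-26b-5p (right). Bars are single libraries. The left ratio is between 20.3 and 22.5 in NC and between 29.0 and 32.3 in MAFLD livers, the middle ratio is lower in all MAFLD livers, and the right ratio overlaps between the groups.

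The passenger arms were scarce. MiR-26a-2-3p, the only passenger analysed here that names its miR-26a hairpin, was read 10, 9 and 11 times in the NC livers and 4, 11 and 1 times in the MAFLD livers. This is 3.92, 5.73 and 8.23 CPM in NC and 1.5, 2.35 and 0.652 CPM in MAFLD livers. All MAFLD livers were below all NC livers, as for 21 of the 501 miRNAs (4.19%), and with median-ratio scaling as for 46 (9.18%). The Wilson interval of NC replicate 1 (2.13 to 7.22 CPM) overlapped with those of all 3 MAFLD livers, of which MAFLD replicate 3 (0.115 to 3.69 CPM) held fewer than the 3 reads set as a detection floor. The means were 5.96 ± 2.16 CPM (SD, n = 3) in NC and 1.5 ± 0.848 CPM (SD, n = 3) in MAFLD livers. The log2 fold change was −1.49 (standard error 0.56, 95% interval −2.68 to −0.30), with an adjusted p of 0.208 by limma (unadjusted 0.0174). The log2 fold change depended on the added 1 CPM, being −2.02 with 0.1 CPM and −0.74 with 5 CPM added. Without MAFLD replicate 3, which held 1 read, the log2 fold change was −1.22 and the unadjusted p was 0.0834.

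For every 10000 reads of miR-26a-5p there were 5.10, 5.77 and 3.48 reads of miR-26a-2-3p in the NC livers and 0.939, 1.89 and 0.275 in the MAFLD livers. The groups did not overlap, and MAFLD replicate 2, the deepest library, was the highest of the MAFLD livers. The log2 difference was −2.37 (standard error 0.69, two-sided exact permutation p = 0.1, the smallest possible). It was −1.77 without MAFLD replicate 3 and −1.73 with 5 reads added in place of 0.5. This ratio was chosen after its values were seen, and its denominator holds reads from Mir26a-1 as well.

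MiR-26b-3p, the passenger of Mir26b, was read 7, 4 and 6 times in the NC livers and 22, 15 and 8 times in the MAFLD livers. In CPM this was 2.75, 2.55 and 4.49 against 8.25, 3.20 and 5.21, and the groups overlapped. MAFLD replicate 1 was the highest, while MAFLD replicate 2 was below NC replicate 3. The log2 fold change was 0.58 (standard error 0.54, 95% interval −0.58 to 1.73), with an adjusted p of 0.570 from limma. A change was thus not detected with these few reads and 3 livers per group. Per 10000 reads of miR-26b-5p there were 17.6, 11.4 and 9.36 reads of miR-26b-3p in the NC livers and 16, 7.96 and 7.60 in the MAFLD livers. The ratio of the arms of this hairpin overlapped between the groups (log2 difference −0.39, standard error 0.42, two-sided exact permutation p = 0.5).

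The 4 members together made up 0.926%, 1.22% and 2.84% of the miRNA reads in the NC livers and 2.11%, 1.65% and 3.05% in the MAFLD livers. The range of the NC livers was thus wider than that of the MAFLD livers and included the values of 2 of them. Both passengers together were at most 0.0720% of the family's reads in any library.

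**Figure D5:**
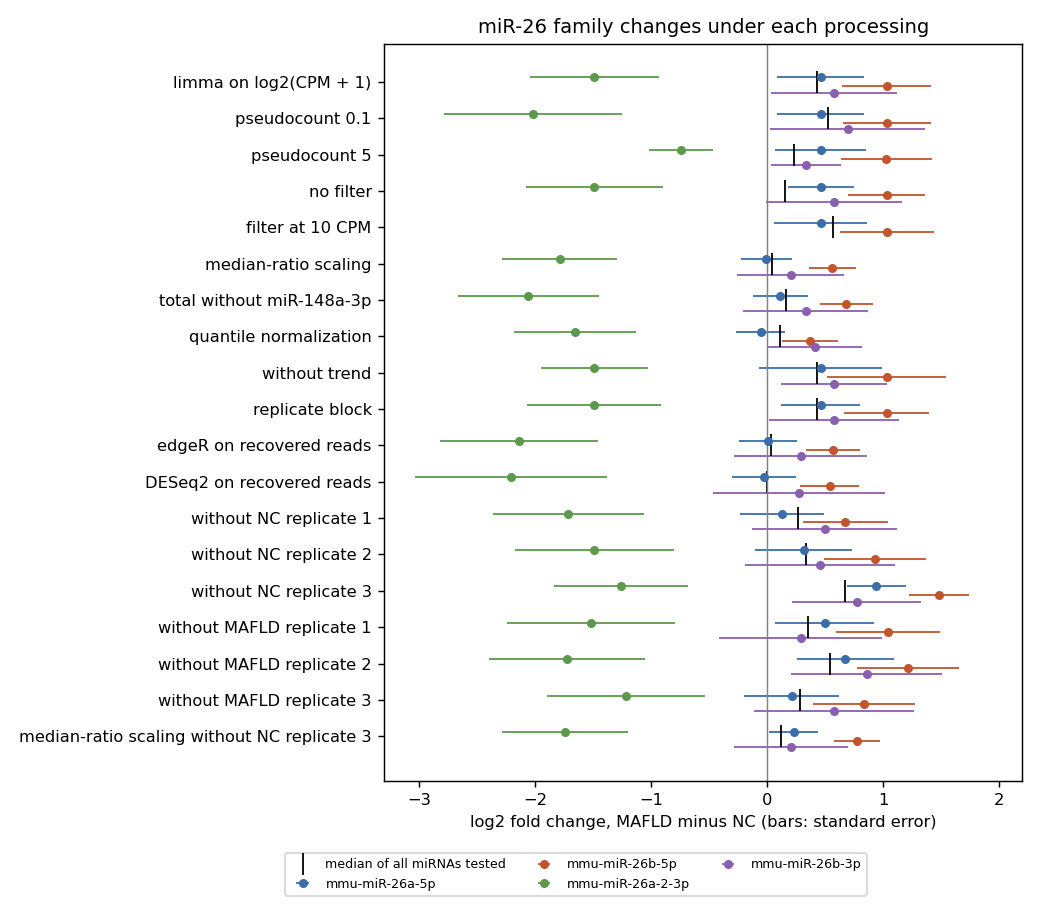
Log2 fold change (MAFLD minus NC) of 4 miR-26 family members under limma on log2(CPM + 1) and under each alternative processing. Points are estimates, horizontal bars are standard errors, and black ticks are the median of all miRNAs tested in that fit (the passengers have no value at 10 CPM). MiR-26a-5p runs from −0.06 to 0.94 and lies on either side of the black ticks, miR-26b-5p lies to their right in each fit, and miR-26a-2-3p lies between −2.21 and −0.74.

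The list of 25 other miRNAs described as acting on liver lipid or glucose metabolism was counted whole. It was chosen with earlier results of these data known, and no test was run on it as a set, so its counts are description only. By CPM, 9 of the 25 were higher and 1 was lower at an unadjusted p under 0.05 from limma. Of all miRNAs, 13.4% were higher and 4.59% lower. In the list 1 passed the adjusted p of 0.05. Their median log2 fold change was 0.65, beside 0.43 for all, and with median-ratio scaling it was 0.28, beside 0.044. The smallest p among those higher belonged to miR-802-5p, a miRNA raised in obesity that impairs insulin action, at 23.0 ± 14.4 CPM in NC and 131 ± 27.5 CPM in MAFLD livers (SD, n = 3; log2 fold change 2.60, adjusted p = 0.0263 from limma). It was followed by miR-30c-5p, which lowers lipoprotein secretion, at 1438 ± 474 and 2988 ± 748 CPM (SD, n = 3; log2 fold change 1.07, adjusted p = 0.152 from limma). Among those lower it belonged to miR-370-3p, which acts on fatty acid oxidation, at 6.48 ± 5.08 and 1.00 ± 0.444 CPM (SD, n = 3; log2 fold change −1.69, adjusted p = 0.208 from limma). Next came miR-144-3p, a miRNA of red blood cells that acts on cholesterol export, with a log2 fold change of −0.67 and a limma adjusted p of 0.482. With median-ratio scaling the log2 fold changes of these named miRNAs were 2.15, 0.61, −2.04 and −1.11, in the same order. Each then had an unadjusted p under 0.05 from limma. The counts and the order by p above are those of CPM, and both differed with median-ratio scaling. By CPM the change of miR-26b-5p was close in size to that of miR-30c-5p, while that of miR-26a-5p was below the median of the list.

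The miRNAs whose pattern over the 6 libraries was nearest to each guide were sought above a mean level of 100 CPM, by the root mean square difference of log2(CPM + 1) after centring each miRNA on its mean. Of 104 candidates, miR-23a-3p (0.214), miR-23b-3p (0.217) and miR-145a-5p (0.232) were nearest to miR-26a-5p, where the median candidate was at 0.417. MiR-23a-3p, for example, was at 108, 147.8 and 400.2 CPM in NC and at 339, 230 and 338 CPM in MAFLD livers, and like miR-26a-5p it was highest in NC replicate 3 within its group. MiR-26b-5p took position 9 (0.293). Nearest to miR-26b-5p were miR-191-5p (0.205) and miR-199a-3p and miR-199b-3p (both 0.224, with identical values in every library), where the median candidate was at 0.429. MiR-191-5p was at 211, 282 and 589 CPM in NC and at 848, 487 and 702 CPM in MAFLD livers. MiR-26a-5p took position 16 in that order. MiR-145a-5p and miR-199a-3p are also on the stellate and fibroblast list. The libraries share their scaling, which moves many abundant miRNAs together, and no test was run on this likeness.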

How the data were processed

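Per the labels, total RNA of mouse liver was treated to remove end and base modifications that block small RNA libraries, and fragments of small RNA size were sequenced on an Illumina NextSeq 500. The submitters' processing notes name FastQC, cutadapt, Bowtie, edgeR and GRCm38, without versions or settings. The authors deposited CPM values of 1546 mature miRNAs, scaled to the reads on all listed miRNAs of each library. Reads were recovered by dividing by the smallest value above 0, and 100% of values came within 0.02 of a whole number.

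The groups (from the sample titles, 3 libraries each, from 1336935 to 4685712 reads) were compared in R 4.3.3 by limma 3.58.1, using a variance trend and log2(CPM + 1) values. The 501 miRNAs whose mean reached 1 CPM were tested two-sided, with Benjamini-Hochberg adjustment over all of them. With 1 library per liver, p-values measure the spread between these livers. In limma the variance of each miRNA is also drawn toward a trend over all miRNAs tested. Without the trend the standard error was larger for both guides (0.53 for miR-26a-5p and 0.51 for miR-26b-5p). It was smaller for both passengers (0.46 each). Ratios were log2 ratios of reads with 0.5 read added, compared by exact permutation in scipy 1.17.1. Wilson intervals and the floor of 3 reads cover counting error only, since reads without molecular identifiers are not independent molecules. Alternatives were other pseudocounts, filters and scalings, no trend, a replicate block, leaving out libraries in turn, and edgeR 4.0.16 and DESeq2 1.42.0 on the recovered reads. The scripts were tested on simulated reads in which 200 of the 501 miRNAs were changed by a fold of 4. Of these, limma on log2(CPM + 1) called 88 (44%), besides 3 unchanged miRNAs. With median-ratio scaling 125 were called, with edgeR 126 and with DESeq2 111. Many changes of that size would thus be missed. Named miRNAs are all members, the miRNAs with the smallest p in each direction of 1 list (2 each), the 3 nearest in pattern to each guide, and those sharing a seed. The members and lists were chosen with earlier results of these data known.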

Additional observations from a re-analysis of the deposited data

How the results depend on the processing

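MiR-26a-5p (0.46) reversed to −0.0069 with median-ratio scaling, −0.0552 with quantile normalization and −0.0235 with DESeq2, spanned 0.13 to 0.94 with single libraries left out, and passed the adjusted p without NC replicate 3. MiR-26b-5p (1.03) stayed above 0 in all 18 alternatives, from 0.37 to 1.48, had an unadjusted p under 0.05 in 14 of them and passed the adjusted p of 0.05 in 2, both without NC replicate 3 (1.48, and 0.77 with median-ratio scaling, which was chosen after seeing the data). The unadjusted p of miR-26b-5p from limma was above 0.05 with quantile normalization (0.159) and without the trend (0.0729). It was also above 0.05 without NC replicate 1 (0.0843) and without MAFLD replicate 3 (0.0689). Its adjusted p ran from 0.00334 to 0.592, and leaving out 1 library gave 0.67 to 1.48. MiR-26a-2-3p (−1.49) stayed below 0 in all 17 alternatives that gave a value, from −2.21 to −0.74 (adjusted p from 0.0707 to 0.592), and miR-26b-3p (0.58) above 0 in all 17, from 0.20 to 0.86 (adjusted p from 0.330 to 0.902). At a mean of 10 CPM neither passenger was tested. The 3 ratios kept their direction. With single libraries left out, the log2 difference spanned 0.54 to 0.62 for miR-26b-5p to miR-26a-5p, −2.89 to −1.77 for miR-26a-2-3p to miR-26a-5p (−1.77 without MAFLD replicate 3) and −0.73 to −0.15 for miR-26b-3p to miR-26b-5p (−0.15 without NC replicate 1). With 5 reads added it was −1.73 for miR-26a-2-3p and −0.79 for miR-26b-3p.

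The 1 miRNA past the adjusted p became 11 without a filter (4 higher, 7 lower), 2 when miR-148a-3p left the total, 2 with median-ratio scaling, 0 without the trend (where 74 had an unadjusted p under 0.05), 28 with DESeq2 (7 higher, 21 lower), 36 with median-ratio scaling without NC replicate 3, and 0 (4 of 6 such fits) to 114 (without NC replicate 3) when 1 library was left out. The 90 at an unadjusted p under 0.05 became 59 at 10 CPM and 40 (without NC replicate 2) to 177 (without NC replicate 3) with single libraries left out, with 56 without NC replicate 1 and 41 without MAFLD replicate 1. The cause was not tested. Under the replicate block the adjusted p was passed by 5 miRNAs, miR-26b-5p had an adjusted p of 0.203 and no member's call changed. Same-numbered livers were different mice, and their deviations correlated between −0.046 and 0.012, so the numbers were not used as pairs. The change of miR-26a-1-3p and its ratio to miR-26a-2-3p were not run. Depth limits the passengers, with 1 to 22 reads per library.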
